A study of Mus musculus with 32 samples.

Results

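Transcripts of 30 genes of cholesterol synthesis, cholesterol transport and their control by SREBP2 were followed in mouse liver. The genes were taken by symbol from a table of 35275 genes; all 30 were found, and all 30 were among the 14438 genes that passed a filter on low counts. They comprise 20 enzymes of the synthesis pathway, 5 genes of its control (Srebf2, Scap, Insig1, Insig2 and Mylip) and 5 genes of cholesterol transport, storage and efflux (Stard4, Npc1, Npc2, Soat2 and Abca1). PolyA RNA of whole liver was sequenced from 32 male c57bl6 mice aged 16 weeks, 4 in each of 8 groups, each library being 1 animal. KO mice (fatp2-/-) lacked Fatp2, a protein that takes up long-chain fatty acids and activates very long-chain ones, and WT mice were the wild-type controls. From 12 to 16 weeks of age they ate a ketogenic diet (KD) or a control-ketogenic diet (CD), and they were fasted for 24 or 4 h before death. The groups were therefore KO KD 24 h, KO KD 4 h, KO CD 24 h, KO CD 4 h, WT KD 24 h, WT KD 4 h, WT CD 24 h and WT CD 4 h. The labels do not say how the KO allele was made or at what time of day livers were taken. Number ranges in the sample titles separate the genotypes and fasting times, so any batch that follows those numbers and these factors cannot be told apart.

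Cholesterol is built from acetyl-CoA by way of mevalonate, farnesyl diphosphate, squalene and lanosterol. The transcription factor SREBP2, the product of Srebf2, switches on the genes of nearly every step. SREBP2 is held in the endoplasmic reticulum by its escort Scap and the sterol-dependent anchors Insig1 and Insig2; when sterol in that membrane falls, Scap carries SREBP2 to the Golgi, where it is cut and freed to enter the nucleus. Insig1 is itself an SREBP2 target, whereas in liver Insig2 has a transcript that insulin lowers. Liver is the main organ that makes, exports and disposes of cholesterol, and its synthesis genes are known to fall with fasting.

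Total counts ranged from 13406678 to 24700310 per library. Slc27a2, the gene of Fatp2, was at 121 to 318 CPM (counts scaled to the normalised library size) in the KO livers and at least 905 CPM in the WT livers, so every library matched its genotype label at this gene. Markers of hepatocytes were high in all libraries. Muscle RNA was seen in 4 livers: the skeletal muscle gene Acta1 reached 162 CPM in KO KD 4 h replicate 4, 178 in replicate 2 of KO CD 24 h, 78.4 in its replicate 1, and 86.1 in WT CD 24 h replicate 1, while no other liver exceeded 0.504 CPM. A score over 68 diet-responsive genes was set so that WT CD livers average 0 and WT KD livers average 1. On it, KO KD 24 h replicate 4 scored 0.299 (others of its group 0.781 to 0.822), and KO CD 24 h replicate 4 scored 0.807 (others 0.153 to 0.336), so the values of both went against their diet labels. Results that rest on these 6 libraries are given with and without them, as values or counts, where a call changes.

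The members spanned a wide range of levels per length of transcript. In WT CD 4 h livers the sterol desaturase gene Sc5d led with 219 ± 41.5 FPKM, followed by the farnesyl diphosphate synthase gene Fdps at 145 ± 50.1, Insig2 at 128 ± 36.2, Insig1 at 114 ± 37.5 and the sterol isomerase gene Ebp at 108 ± 6.03 FPKM (SD, n = 4). The order among Fdps, Insig2, Insig1 and Ebp was within the spread between animals, and Sc5d was separated by more than 1 SD on each side from Insig2, Insig1 and Ebp but not from Fdps. At the low end stood Lbr, a sterol reductase that also anchors chromatin, at 2.77 ± 0.351 FPKM and the geranylgeranyl diphosphate synthase gene Ggps1 at 2.37 ± 0.254 FPKM. The mevalonate-pathway enzyme genes Mvd and Idi1 and the squalene epoxidase gene Sqle lay between 5.64 and 7.26 FPKM.

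Most of the synthesis enzymes formed a pattern in which the same fast went with opposite levels on the 2 diets. These were high after 24 h and low after 4 h of fasting in KD livers, and the reverse in CD livers, in both genotypes. Ggps1 did not follow it on either diet. On CD its means were 9.25 CPM after 24 h against 6.39 after 4 h in KO livers. In WT CD livers its means were 7.94 against 5.86 CPM. Hsd17b7 on CD had means of 54.5 against 60.6 CPM in KO and 63.6 against 49.2 CPM in WT livers. Averaged over the 20 enzymes as log2 CPM, the livers lay at 4.04 to 6.06 in KO KD 24 h, 4.02 to 4.38 in KO KD 4 h, 3.69 to 4.13 in KO CD 24 h and 4.98 to 6.23 in KO CD 4 h. In WT livers the ranges were 5.33 to 6.20 in KD 24 h, 4.08 to 5.47 in KD 4 h, 3.75 to 4.18 in CD 24 h and 4.99 to 5.92 in CD 4 h. Livers of 1 group often moved as a block. WT KD 4 h replicate 2 was the highest of its group in 19 of the 20 enzymes, WT KD 24 h replicate 4 in 18 and KO CD 4 h replicate 4 in 17. WT CD 4 h replicate 4 was the lowest of its group in 19, KO CD 4 h replicate 3 in 18 and KO KD 24 h replicate 4 in 15.

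**Figure D1:**
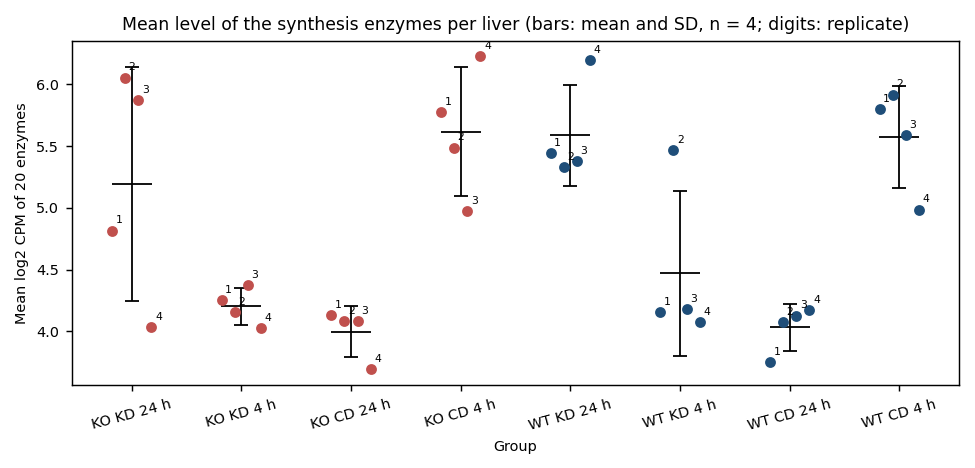
Mean log2 CPM of the 20 synthesis enzymes in each liver (points, with replicate numbers) by group, with the group mean and SD (n = 4). CD 4 h and most KD 24 h livers sit above the CD 24 h and most KD 4 h livers; WT KD 4 h replicate 2 (5.47) and KO KD 24 h replicate 4 (4.04) lie away from their groups.

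**Figure D2:**
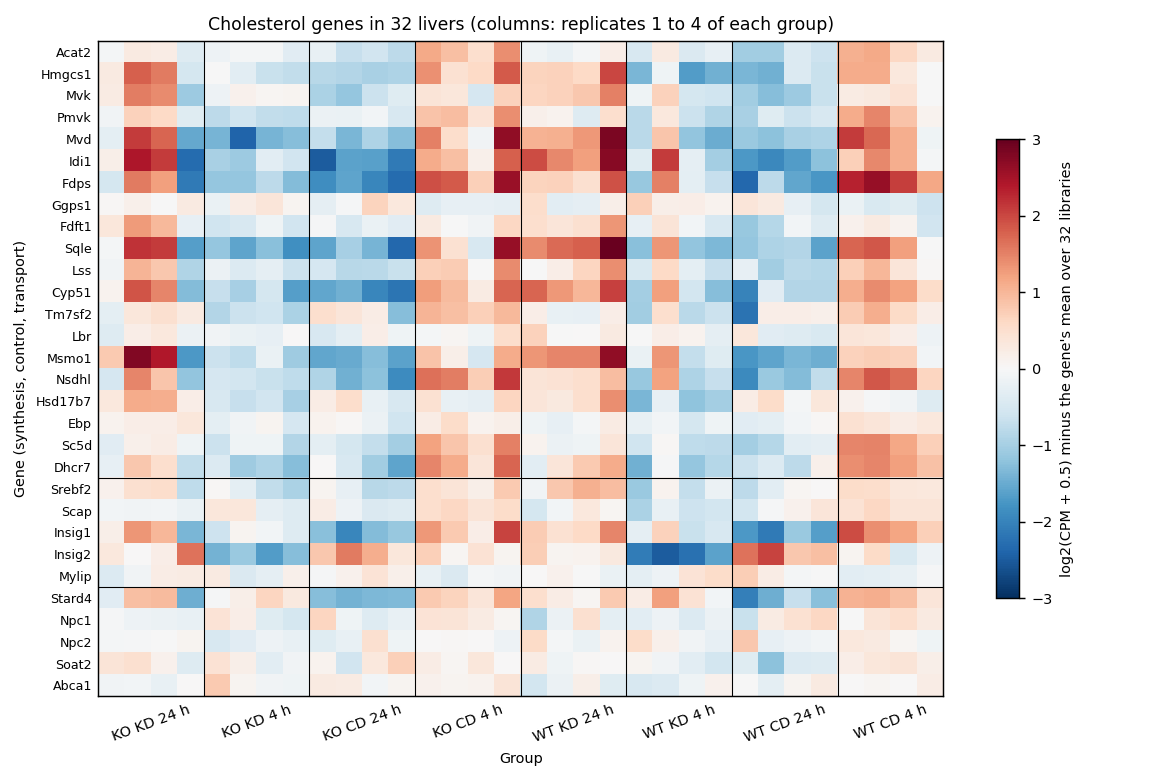
Level of each of the 30 genes in each of the 32 livers, as log2(CPM + 0.5) minus the mean of that gene over all livers (colour), with genes ordered by role and 4 replicate columns per group. Most enzymes, Insig1 and Stard4 are red in CD 4 h and in most KD 24 h livers and blue in CD 24 h livers, while Insig2 is darkest blue in KD 4 h livers.

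Hmgcs1, whose product condenses acetoacetyl-CoA with acetyl-CoA at the entry of the pathway, shows the pattern animal by animal. Its CPM in replicates 1 to 4 were 119, 340, 287 and 67.4 in KO KD 24 h, 97.5, 78.2, 61.7 and 58.4 in KO KD 4 h, 55.1, 53.2, 49.4 and 51.5 in KO CD 24 h, and 255, 135, 148 and 349 in KO CD 4 h. In WT livers they were 155, 158, 148 and 391 in KD 24 h, 37.8, 89.5, 30.4 and 35.7 in KD 4 h, 37.2, 35.6, 72.9 and 60.9 in CD 24 h, and 210, 213, 123 and 97.3 in CD 4 h. Between the fasting times the groups did not overlap, except in KO KD livers, where replicate 4 after 24 h lay below 2 of the 4 h livers; between the diets they did not overlap in either genotype at either time.

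Sqle, the gene of a rate-limiting oxygenase of the pathway, moved over a wider fold range. Its CPM were 9.69, 46.5, 44.4 and 2.85 in KO KD 24 h, 4.18, 3.02, 3.88 and 2.46 in KO KD 4 h, 3.01, 4.77, 3.53 and 1.56 in KO CD 24 h, and 26.5, 13.9, 7.04 and 64.4 in KO CD 4 h. WT livers had 27.6, 33.6, 36 and 81.6 CPM in KD 24 h, 3.94, 26, 4.17 and 3.64 in KD 4 h, 4.19, 5.02, 5.23 and 2.96 in CD 24 h, and 34.6, 37.7, 24.2 and 9.94 in CD 4 h. Apart from WT KD 4 h replicate 2 and KO KD 24 h replicate 4, the high and low groups of each genotype were clear of each other.

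Mvd, which makes isopentenyl diphosphate from diphosphomevalonate, had the largest fasting effect on KD in KO livers. It had 3.83, 22.2, 17.2 and 1.32 CPM in KO KD 24 h, 1.51, 0.504, 1.53 and 1.7 in KO KD 4 h, 2.7, 1.55, 2.27 and 1.68 in KO CD 24 h, and 14.7, 7.14, 4.44 and 33.2 in KO CD 4 h livers. The WT values were 10.4, 10.5, 12.5 and 37 CPM in KD 24 h, 2.5, 8.92, 1.84 and 1.37 in KD 4 h, 1.95, 1.77, 2.18 and 2.3 in CD 24 h, and 22, 17, 10.7 and 4.36 in CD 4 h. Again only KO KD 24 h replicate 4 and WT KD 4 h replicate 2 crossed toward another group. Another annotated gene, Gm20388, spans 9827 bases of Mvd on the opposite strand, and the strand setting of the counting is not given, so the reads of these 2 genes cannot be told apart.

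**Figure D3:**
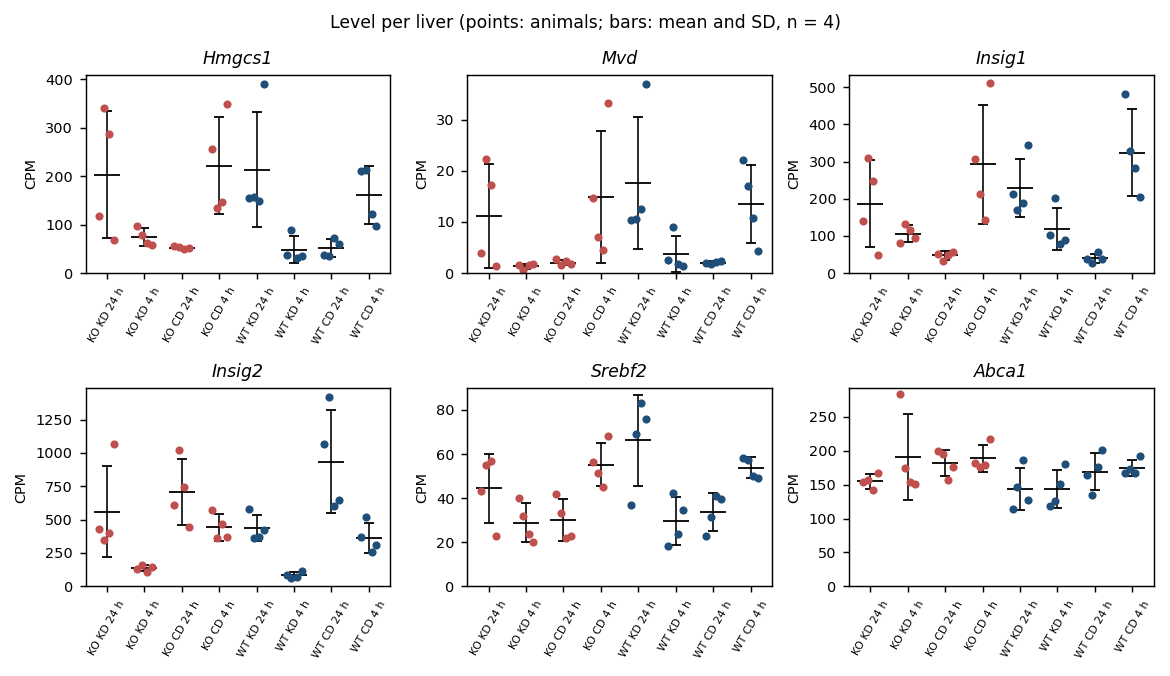
Level in CPM of Hmgcs1, Mvd, Insig1, Insig2, Srebf2 and Abca1 in each liver (points; red KO, blue WT) by group, with mean and SD (n = 4). Hmgcs1, Mvd and Insig1 are lower in CD 24 h and KD 4 h livers than in CD 4 h livers, save WT KD 4 h replicate 2 for Mvd, Insig2 is lowest in KD 4 h livers, and Abca1 stays between 114 and 284 CPM.

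The DNA before the start sites of 5 members is shown. Hmgcs1, Mvd, Idi1 and Insig1 were taken because their transcripts moved together, and Insig2 because its transcript moved apart from the rest. Each line is the 250 bases upstream of the RefSeq start site (GRCm38.p6), 5′ to 3′ on the strand of the gene. Capitals mark CACNCCAC, the core of a sterol regulatory element, and CCAAT, the letters bound by NF-Y, a partner of SREBP2, each on either strand.
Hmgcs1, chr13:119690101-119690350, plus strand: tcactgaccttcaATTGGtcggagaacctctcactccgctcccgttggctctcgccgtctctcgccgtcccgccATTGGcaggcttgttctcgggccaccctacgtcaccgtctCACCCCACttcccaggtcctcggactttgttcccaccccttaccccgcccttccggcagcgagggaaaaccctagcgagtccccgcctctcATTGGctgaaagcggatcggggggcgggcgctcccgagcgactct
Mvd, chr8:122443423-122443672, minus strand: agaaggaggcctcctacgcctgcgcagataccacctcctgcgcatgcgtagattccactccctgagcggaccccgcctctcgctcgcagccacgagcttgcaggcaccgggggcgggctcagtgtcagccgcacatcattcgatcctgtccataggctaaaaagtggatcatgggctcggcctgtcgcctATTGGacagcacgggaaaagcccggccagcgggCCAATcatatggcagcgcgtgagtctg
Idi1, chr13:8885356-8885605, plus strand: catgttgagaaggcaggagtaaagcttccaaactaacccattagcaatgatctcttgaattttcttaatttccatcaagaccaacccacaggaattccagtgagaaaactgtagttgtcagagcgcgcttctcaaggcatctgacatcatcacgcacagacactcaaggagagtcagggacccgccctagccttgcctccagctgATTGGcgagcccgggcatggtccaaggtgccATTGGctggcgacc
Insig1, chr5:28071162-28071411, plus strand: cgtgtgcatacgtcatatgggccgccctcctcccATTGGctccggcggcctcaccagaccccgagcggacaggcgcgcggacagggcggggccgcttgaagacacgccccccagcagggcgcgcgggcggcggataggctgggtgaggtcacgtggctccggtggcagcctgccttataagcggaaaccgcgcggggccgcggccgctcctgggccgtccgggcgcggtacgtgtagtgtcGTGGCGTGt
Insig2, chr1:121332590-121332839, minus strand: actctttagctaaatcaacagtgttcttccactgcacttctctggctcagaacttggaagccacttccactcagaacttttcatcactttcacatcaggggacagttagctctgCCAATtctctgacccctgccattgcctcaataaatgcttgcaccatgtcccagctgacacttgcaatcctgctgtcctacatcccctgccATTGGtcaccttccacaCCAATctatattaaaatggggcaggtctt
Upstream sequence was at hand for 24 of the 30 members and for 27025 genes in all. CCAAT was found on either strand in 21 of the 24 members (87.5%) and in 37.5% of all genes. CACNCCAC was found in 3 members (12.5%), Acat2, Hmgcs1 and Insig1, and in 6.05% of all genes. The longer TCACNCCAC, which contains it, was in 1 member (4.17%), Hmgcs1, and in 1.22% of all genes. CCACCCAC occurred in 1 member, Dhcr7 (4.17%; 4.09% of all genes), and GTGGGNGA in 2, Ebp and Lss (8.33%; 6.62% of all genes). In Hmgcs1 the TCACNCCAC match began 137 bases before the start site, and in Insig1 the CACNCCAC match, on the other strand, began 9 bases before it. In the deposited coordinates Insig1 starts at base 28071363 and Idi1 at 8885501, inside the lines printed for them. This Insig1 match and the 2 CCAAT matches of Idi1 therefore lie within the genes as counted. The Insig2 line is the entry whose start site meets the end of the gene in the deposited table; it held 3 CCAAT matches, and the other Insig2 entries none. A match of letters describes the sequence only, and windows further away were not searched.

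Fasting on CD was compared to ask how the pathway changed between a short and a long fast on the control diet. Most of the synthesis pathway was lower after 24 h than after 4 h in both genotypes. In KO livers 18 of 30 members were lower and 0 higher (edgeR adjusted p under 0.05; 9.75% of all genes lower and 8.97% higher), and in WT livers 18 were lower and 1 higher (9.61% of all genes lower and 8.89% higher). The median log2 fold change of the members was −1.14 in KO and −1.32 in WT livers, against −0.01 and 0.02 over all genes tested. Of the enzymes, 14 were lower in KO and 15 in WT livers. The lower calls shared 16 genes, which is 88.9% of each list.

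In KO CD livers the fall after 24 h was led by Fdps (−3.87 ± 0.63, edgeR adjusted p = 0.000127), Idi1, which interconverts the C5 isoprenoid units (−3.24 ± 0.71, 0.00248), and Sqle (−3.12 ± 0.74, 0.00467), all as log2 fold change with SE. Nsdhl, a demethylating sterol dehydrogenase (−3.03 ± 0.50, adjusted p = 0.000142), Cyp51, lanosterol demethylase (−2.96 ± 0.55, 0.000539), and Mvd (−2.84 ± 0.72, 0.00695) followed. In WT CD livers Fdps (−3.69 ± 0.62, adjusted p = 7.8e-05), Insig1 (−3.01 ± 0.44, 1.27e-05), Nsdhl (−2.81 ± 0.49, 0.000148), Mvd (−2.72 ± 0.72, 0.00764), Idi1 (−2.67 ± 0.69, 0.00654) and Sqle (−2.61 ± 0.72, 0.0108) fell furthest. Fdps had 11.5, 13.9, 10.7 and 8.27 CPM in KO CD 24 h against 166, 154, 70.7 and 258 in KO CD 4 h livers. In WT livers it had 7.93, 24.4, 14.2 and 12.3 CPM in CD 24 h against 213, 266, 182 and 95.8 in CD 4 h. The groups were far apart in both genotypes. Of 6 hepatocyte markers 0 passed in KO and 1 was lower in WT livers, with median log2 fold changes of −0.31 and −0.16, and of 8 Kupffer markers 4 were lower in KO and 0 in WT livers; their part in the result was not tested. Muscle markers were higher after 24 h on CD, 5 of 7 in KO and 3 in WT livers, and without the libraries that held them 19 members were lower and 1 higher in each genotype. In that fit Ggps1 (0.84, adjusted p = 0.0093), Tm7sf2 (−1.26, 0.0113) and Ebp (−0.66, 0.0053) passed and Mvk (0.196) did not in KO livers, and Lbr passed in WT livers. With each library left out in turn, 15 of the 18 called members stayed called every time in KO livers and 18 of 19 in WT livers.

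Fasting on KD went the other way. After 24 h, 10 members were higher and 0 lower in KO KD livers (4.56% of all genes higher, 4.82% lower), and 8 were higher and 0 lower in WT KD livers (6.26% higher, 4.65% lower). The median log2 fold change was 0.83 in KO and 0.71 in WT livers, against −0.03 and 0.00 over all genes. The called lists shared 6 genes, 60% of the KO and 75% of the WT list. In KO KD livers Mvd (3.09 ± 0.75, edgeR adjusted p = 0.00957), Sqle (2.93 ± 0.73, 0.0124), the methylsterol oxidase gene Msmo1 (2.49 ± 0.55, 0.00538), Idi1 (2.24 ± 0.66, 0.0298), Insig2 (2.05 ± 0.33, 0.000295) and Cyp51 (1.92 ± 0.52, 0.0202) rose most. In WT KD livers Insig2 (2.40 ± 0.33, adjusted p = 2.29e-05), Mvd (2.24 ± 0.68, 0.0299), Sqle (2.22 ± 0.69, 0.0332), Hmgcs1 (2.14 ± 0.44, 0.00158), Cyp51 (1.61 ± 0.51, 0.0395) and Hsd17b7, a sterone reductase (1.61 ± 0.28, 0.000359), did so.

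Hepatocyte markers were higher after 24 h on KD for 1 of 6 in KO and 2 in WT livers, with medians of 0.59 and 0.39, and their part in the result was not tested. The number of members that passed on KD changed with single libraries. Shares of all genes called in those fits are not given here, so the changes are not read as particular to the members. Without WT KD 4 h replicate 2, which was high in the enzymes, 19 members were called in WT livers; without WT KD 4 h replicate 1, WT KD 4 h replicate 3 or WT KD 24 h replicate 4, 4 were called, and without WT KD 4 h replicate 4, 5. In KO livers 5 were called without KO KD 24 h replicate 2 and 6 without replicate 3. Without the libraries near the other diet Fdps (2.12, adjusted p = 0.0187), Mvk (1.17, 0.0207) and Dhcr7 (1.33, 0.0267) passed as well in KO livers, and without those with muscle transcripts Hmgcs1 (0.0726), Idi1 (0.0562) and Cyp51 (0.05) no longer did. Hsd17b7, Insig2, Msmo1, Mvd and Sqle held in every such fit in KO livers, and Hmgcs1, Hsd17b7, Insig2 and Srebf2 in WT livers.

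**Figure D4:**
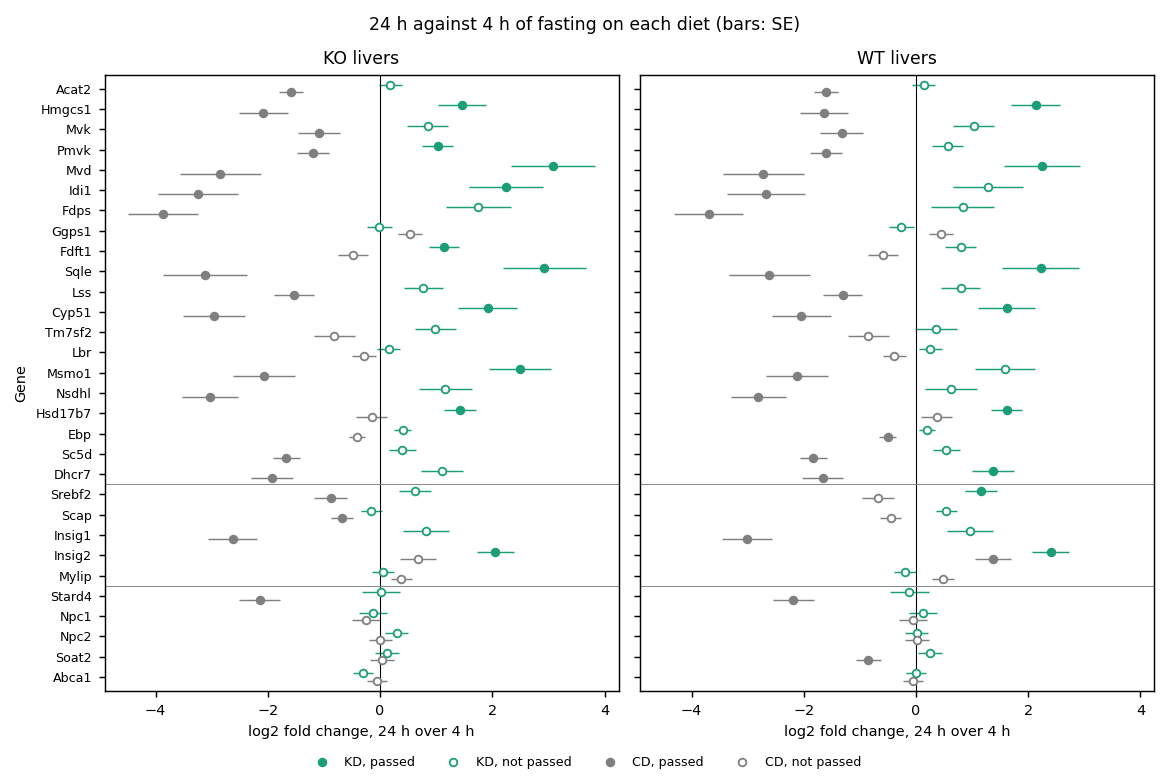
Log2 fold change of each member, 24 h over 4 h of fasting (bars, SE), in KO livers (left) and WT livers (right), on KD (green) and CD (grey); filled points passed at an edgeR adjusted p under 0.05. Grey points of most enzymes lie left of 0 and green points right of it, and Insig2 lies right of 0 on both diets.

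The diets were compared after each fast to ask what KD did to the pathway. After 4 h the pathway was lower on KD. In KO livers 16 members were lower and 0 higher (4.66% of all genes lower, 2.56% higher), and in WT livers 15 were lower and 1 higher (16.5% of all genes lower, 10.8% higher). The median log2 fold change was −1.18 in KO and −0.83 in WT livers, against 0.01 and 0.03 over all genes. Of the enzymes 13 were lower in KO and 11 in WT livers, and the lower lists shared 13 genes, 81.2% of the KO and 86.7% of the WT list.

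In KO livers after 4 h the largest falls on KD were those of Mvd (−3.49 ± 0.75, edgeR adjusted p = 0.00452), Sqle (−3.04 ± 0.73, 0.0107), Fdps (−3.03 ± 0.60, 0.00221), Nsdhl (−2.27 ± 0.47, 0.00378), Dhcr7, which reduces 7-dehydrocholesterol to cholesterol (−2.16 ± 0.38, 0.000838), and Cyp51 (−2.09 ± 0.52, 0.0142). In WT livers they were those of Insig2 (−2.14 ± 0.33, adjusted p = 2.86e-05), Dhcr7 (−2.06 ± 0.38, 0.000196), Fdps (−1.90 ± 0.57, 0.0147), Mvd (−1.86 ± 0.67, 0.0405), Hmgcs1 (−1.73 ± 0.43, 0.00384) and Sc5d (−1.73 ± 0.24, 7.38e-06). Sc5d had 141, 200, 201 and 119 CPM in KO KD 4 h against 507, 388, 306 and 621 in KO CD 4 h livers. It had 145, 223, 129 and 127 CPM in WT KD 4 h against 606, 610, 491 and 361 in WT CD 4 h livers, so the diets did not overlap in either genotype. The member that was higher on KD in WT livers was Ggps1 (0.77 ± 0.22, adjusted p = 0.0102), with 13.3, 9.05, 9.16 and 8.53 CPM in KD 4 h against 6.84, 5.62, 6 and 4.97 in CD 4 h livers. Ggps1 makes geranylgeranyl diphosphate for protein prenylation, a side branch of the pathway, and overlaps 170 bases of Arid4b on the opposite strand.

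Markers of hepatocytes moved with the diet at 4 h. Of 6 markers 3 were lower on KD in KO livers and 4 in WT livers, with median log2 fold changes of −0.75 and −0.86. Their summed level was 26533 to 51159 CPM in KO KD 4 h against 61743 to 70273 in KO CD 4 h livers, and 25250 to 48093 in WT KD 4 h against 60662 to 76418 in WT CD 4 h livers, with none at 0. In whole liver fewer cells of a type and less RNA per cell cannot be told apart, and the part of this shift in the lower cholesterol genes was not tested. After 24 h, when the members were higher on KD in WT livers, 0 of the 6 passed in either genotype, with median log2 fold changes of −0.04 in KO and −0.15 in WT livers. Without KO CD 4 h replicate 4 the count of called members in KO livers was 9, and without KO KD 4 h replicate 4, which held muscle transcripts, 10. Without all libraries with muscle transcripts 11 remained called in KO livers, and Hmgcs1, Lss, Hsd17b7, Srebf2 and Insig1 had adjusted p of 0.0711 to 0.109. The WT count was 9 without WT KD 4 h replicate 1 and 10 without replicate 3.

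After 24 h of fasting the members were higher on KD. In WT livers 13 were higher and 0 lower (1.32% of all genes higher, 1.46% lower), 11 of them enzymes, with a median log2 fold change of 0.87 against −0.01 over all genes. Idi1 (3.75 ± 0.71, edgeR adjusted p = 0.00414), Msmo1 (3.42 ± 0.58, 0.00138), Sqle (3.36 ± 0.74, 0.0107), Mvd (3.10 ± 0.73, 0.0161), Fdps (2.63 ± 0.59, 0.0126) and Cyp51 (2.54 ± 0.53, 0.00845) rose most. Msmo1 had 103, 114, 114 and 262 CPM in WT KD 24 h against 11.9, 13.4, 15.6 and 14.7 in WT CD 24 h livers, and every KD liver was far above every CD liver. Without WT KD 24 h replicate 4, the highest of its group in most enzymes, 7 members were called: Cyp51, Idi1, Insig1, Msmo1, Mvk, Sqle and Stard4. Without the libraries with muscle transcripts 12 were called, and Nsdhl was not (1.69, adjusted p = 0.0922).

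In KO livers after 24 h the only member called was Msmo1 (3.37 ± 0.58, edgeR adjusted p = 0.0365), higher on KD, and it was the only gene of the table to pass (0.00693% of all genes higher, 0% lower). Msmo1 had 70.8, 287, 221 and 12.1 CPM in KO KD 24 h against 13.6, 14, 16.6 and 13.1 in KO CD 24 h livers, so 3 KD livers were well above the CD livers and replicate 4 below all of them. The median log2 fold change of the members was 0.65, against −0.02 over all genes, and 18 had an unadjusted p under 0.05. DESeq2 called 10 members higher (0.342% of all genes higher in that fit). Without KO KD 24 h replicate 4 edgeR called 10 (0.15%), and without both libraries that lay near the other diet 8 (0.232%), among them Idi1 (3.92, adjusted p = 0.00861), Mvk, the mevalonate kinase gene (2.15, 0.00242), Insig1 (2.40, 0.00777) and Stard4 (1.99, 0.00777). Without any of KO CD 24 h replicates 1, 2 or 3, or KO KD 24 h replicates 2 or 3, it called 0, and likewise 0 without the 4 libraries with muscle transcripts or in a fit to these groups alone.

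**Figure D5:**
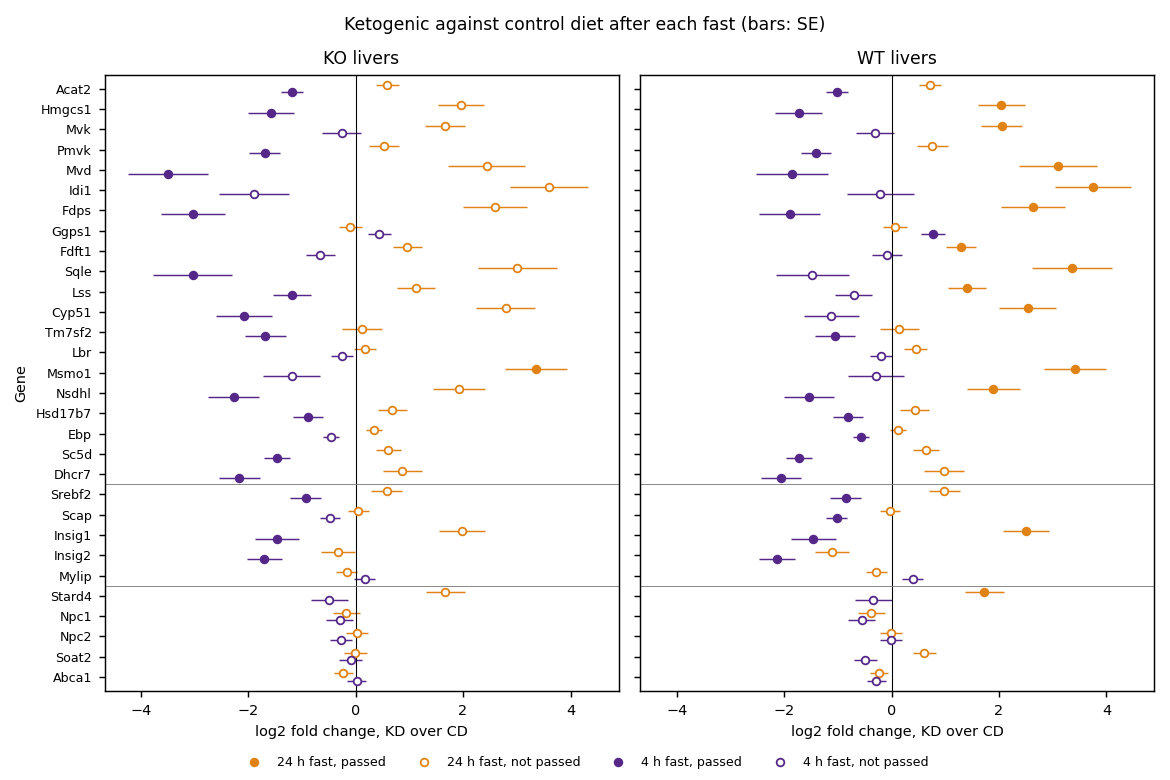
Log2 fold change of each member, KD over CD (bars, SE), in KO livers (left) and WT livers (right), after 24 h (orange) and 4 h (purple) of fasting; filled points passed at an edgeR adjusted p under 0.05. Most enzymes lie right of 0 after 24 h and left of 0 after 4 h in both genotypes, but the orange points of KO livers are open apart from Msmo1.

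The difference between the diet effects at 24 and 4 h was tested directly, as the effect of KD after 24 h minus that after 4 h; it draws on the same livers as the comparisons above. In KO livers it passed for 18 members (1.39% of all genes, either direction) and in WT livers for 22 (12.9%), and it was positive for each of them. All 18 KO calls were among the WT calls, 81.8% of which they made up, and Mvk, Scap, Soat2 and Srebf2 passed in WT but not in KO livers. For Mvk and Srebf2 that contrast rests on single libraries and on the tool: in KO livers DESeq2 called both (adjusted p = 0.014 and 0.0156), and without KO KD 24 h replicate 4 edgeR did too (2.24, 0.00641 and 1.71, 0.025). Mvk also passed without both libraries near the other diet (2.40, 0.00539), where Hsd17b7 and Ebp no longer did (0.0705 and 0.209), and Srebf2 (1.79, 0.0228) and Tm7sf2 (2.19, 0.0134) passed without the libraries with muscle transcripts. Whether the difference itself differed between the genotypes was not tested. The largest log2 differences in KO livers were those of Sqle (6.05 ± 1.04, edgeR adjusted p = 0.00266), Mvd (5.93 ± 1.03, 0.00282), Fdps (5.62 ± 0.84, 0.00229), Idi1 (5.48 ± 0.97, 0.00305), Cyp51 (4.88 ± 0.76, 0.00229) and Msmo1 (4.56 ± 0.78, 0.00266). In WT livers they were those of Mvd (4.96 ± 0.99, adjusted p = 0.00118), Sqle (4.83 ± 1.00, 0.00157), Fdps (4.53 ± 0.82, 0.000483), Insig1 (3.97 ± 0.60, 5.7e-05), Idi1 (3.96 ± 0.93, 0.00486) and Hmgcs1 (3.78 ± 0.61, 0.000138). The median was 1.87 in KO and 1.95 in WT livers, against −0.04 and −0.03 over all genes. With each library left out in turn, 13 of the 18 members held every time in KO livers and 19 of the 22 in WT livers.

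KO and WT livers were compared within each diet and fasting time to ask what loss of Fatp2 did to the pathway. No member passed in any of the 4 comparisons by edgeR. The share of all genes that were higher in KO was 2% for KD 24 h, 1.84% for KD 4 h, 0.942% for CD 24 h and 1.38% for CD 4 h; the share lower was 1.95%, 0.977%, 1.13% and 0.45%. At an unadjusted p under 0.05 there were 0 members for KD 24 h, 7 for KD 4 h, 1 for CD 24 h and 0 for CD 4 h, and DESeq2 called 0, 1, 1 and 0. The medians of the members were −0.07, −0.18, −0.01 and 0.05 on the log2 scale. The 95% interval of the log2 fold change lay within a 2-fold change either way for 19, 20, 17 and 22 of the 30 members. It did not for Mvd, Idi1, Fdps, Sqle, Cyp51, Msmo1 and Nsdhl in any of the 4 comparisons, so a difference over 2-fold in these genes was not excluded.

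The members nearest to a genotype difference were Scap and Soat2. Scap had 127, 128, 83.1 and 76.9 CPM in KO KD 4 h against 52.3, 86.8, 65.2 and 69 in WT KD 4 h livers, which overlap, with 0.60 ± 0.19 as log2 fold change (adjusted p = 0.0905 by edgeR and 0.0449 by DESeq2). It passed by edgeR without WT KD 4 h replicate 2 (0.76, adjusted p = 0.0429), without KO KD 4 h replicate 4 (0.74, 0.0354), and without the libraries with muscle transcripts (0.72, adjusted p = 0.0102). Soat2, which esterifies cholesterol for storage and for lipoproteins, had 47.9, 29.6, 55.2 and 72.9 CPM in KO CD 24 h against 34.6, 18.8, 33.2 and 33.8 in WT CD 24 h livers. Its log2 fold change was 0.77 ± 0.22 (adjusted p = 0.0576; DESeq2 0.0203), 0.98 (0.00956) without KO CD 24 h replicate 2, and 1.16 (0.00295) without the libraries with muscle transcripts, where Npc1 also passed (−0.76, 0.0415). In KD 4 h livers Idi1 (−1.46, 95% interval −2.78 to −0.14), Sqle (−1.49, −2.97 to −0.01) and Fdps (−1.36, −2.52 to −0.20) had an unadjusted p under 0.05 and adjusted p of 0.268, 0.326 and 0.233; WT KD 4 h replicate 2, the high library, is in this comparison.

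Whether the effect of diet or of fasting differed between KO and WT livers was tested as well. No member passed for diet after 24 h (0% of all genes) or 4 h (0.104%), or for fasting on KD (0.256%) or CD (0.61%). The unadjusted count was 0, 0, 1 and 1, and DESeq2 called 0 in each. The log2 difference of the diet effect, KO minus WT, was for example −0.09 for Hmgcs1 after 24 h (95% interval −1.30 to 1.13) and 0.15 after 4 h (−1.06 to 1.36). For Sqle it was −0.35 (−2.40 to 1.71) and −1.56 (−3.55 to 0.42). Without the libraries with muscle transcripts Soat2 passed for fasting on CD (1.28, adjusted p = 0.0154). These intervals leave room for sizeable differences in the strongly moving enzymes. Kupffer cell markers moved with genotype after 24 h: of 8 in the table, 5 were lower in KO KD and 6 in KO CD livers, with summed levels of 143 to 232 CPM in KO KD 24 h against 304 to 471 in WT KD 24 h, and 123 to 223 in KO CD 24 h against 233 to 705 in WT CD 24 h. No member passed at these times.

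Among the control genes, Insig1 followed the enzymes and Insig2 did not. Insig1 had 140, 311, 249 and 47.7 CPM in KO KD 24 h, 80.8, 132, 117 and 94.9 in KO KD 4 h, 51.5, 31.4, 49.7 and 56.4 in KO CD 24 h, and 306, 212, 141 and 510 in KO CD 4 h livers. WT livers had 212, 170, 189 and 344 CPM in KD 24 h, 103, 202, 78.2 and 88.5 in KD 4 h, 37, 28.3, 56.8 and 38.9 in CD 24 h, and 483, 327, 282 and 204 in CD 4 h. CD 24 h livers were the lowest in both genotypes, apart from KO KD 24 h replicate 4, which lay among them. After the longer fast Insig1 fell on CD, with −2.63 ± 0.43 in KO and −3.01 ± 0.44 in WT livers as log2 fold change (edgeR adjusted p = 0.000147 and 1.27e-05), and on KD it was 0.82 ± 0.41 (0.202) and 0.96 ± 0.41 (0.14). It also fell on KD against CD after 4 h, with −1.46 ± 0.41 in both genotypes (0.0298 in KO, 0.076 there without the libraries with muscle transcripts, and 0.0103 in WT) and after 24 h it was 1.98 ± 0.42 in KO (0.07) and 2.51 ± 0.43 in WT (0.00163).

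Insig2 was lowest in KD 4 h livers and high in CD 24 h livers. It had 433, 347, 397 and 1065 CPM in KO KD 24 h, 129, 161, 108 and 143 in KO KD 4 h, 612, 1025, 741 and 441 in KO CD 24 h, and 574, 358, 464 and 369 in KO CD 4 h livers. In WT livers it had 577, 366, 372 and 424 CPM in KD 24 h, 81.2, 61.4, 73.5 and 114 in KD 4 h, 1068, 1419, 603 and 650 in CD 24 h, and 367, 518, 254 and 312 in CD 4 h. The KD 4 h livers lay below all the other livers of their genotype. The longer fast raised it on KD (2.05 ± 0.33 in KO, edgeR adjusted p = 0.000295; 2.40 ± 0.33 in WT, 2.29e-05) and in WT livers on CD (1.37 ± 0.32, 0.003). In KO CD livers it was 0.67 ± 0.32 (0.13), and 0.86 (0.0387) without the libraries near the other diet. After 4 h KD lowered it in KO (−1.71 ± 0.33, 0.00164) and WT livers (−2.14 ± 0.33, 2.86e-05). After 24 h the diet difference was −0.33 ± 0.32 (0.697) in KO and −1.11 ± 0.32 (0.056; DESeq2 0.0174) in WT livers.

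Srebf2 itself was called in 4 of the 12 pairwise comparisons. Its CPM were 43.1, 55.1, 56.9 and 22.9 in KO KD 24 h, 40.2, 31.9, 23.5 and 20.1 in KO KD 4 h, 41.8, 33.3, 21.7 and 22.8 in KO CD 24 h, and 56.4, 51.5, 44.9 and 68.1 in KO CD 4 h livers. WT livers had 36.7, 69, 83.1 and 75.8 CPM in KD 24 h, 18.1, 42.1, 23.9 and 34.8 in KD 4 h, 22.6, 31.3, 40.9 and 39.7 in CD 24 h, and 58.2, 57.4, 50 and 49.3 in CD 4 h. In both genotypes the CD 4 h livers lay above all CD 24 h and all KD 4 h livers. Srebf2 was lower on KD after 4 h in KO (−0.93 ± 0.29, edgeR adjusted p = 0.0445; 0.0972 without the libraries with muscle transcripts) and WT livers (−0.85 ± 0.29, 0.0273). After the longer fast it was lower in KO CD livers (−0.88 ± 0.29, 0.0307; 0.0724 without the 2 livers that scored near the other diet) and higher in WT KD livers (1.15 ± 0.29, 0.00876), with −0.68 ± 0.29 in WT CD (0.0964) and 0.62 ± 0.29 in KO KD livers (0.162). Scap was lower on KD after 4 h in WT livers (−1.02 ± 0.19, 0.000295; KO −0.48 ± 0.19, 0.124) and lower after 24 h of fasting in KO CD livers (−0.68 ± 0.19, 0.0149, and 0.0573 without the libraries near the other diet; WT CD −0.45 ± 0.19, 0.102). On the opposite strand 5830462I19Rik overlaps 3383 bases of Scap, so its counts may hold reads of that gene. Mylip, a ubiquitin ligase induced by sterol-sensing LXR receptors that degrades lipoprotein receptors, passed in none of the 12 pairwise comparisons, with log2 fold changes between −0.28 and 0.48.

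Of the transport genes, Stard4, a soluble carrier that moves cholesterol between membranes, behaved most like an enzyme. It had 47.8, 115, 117 and 21.7 CPM in KO KD 24 h, 59.1, 69.4, 96.2 and 74.3 in KO KD 4 h, 24.8, 22.4, 23.6 and 24.2 in KO CD 24 h, and 106, 97.9, 78.3 and 139 in KO CD 4 h livers. WT livers had 86.7, 71.1, 63.8 and 105 CPM in KD 24 h, 70.9, 144, 82.1 and 57.3 in KD 4 h, 14.3, 21.6, 37.6 and 25.5 in CD 24 h, and 126, 130, 115 and 78 in CD 4 h. The CD 24 h group stood alone at the low end, apart from KO KD 24 h replicate 4. Fasting on CD lowered Stard4 in KO (−2.15 ± 0.36, edgeR adjusted p = 0.000195) and WT livers (−2.18 ± 0.36, 7.05e-05). KD against CD after 24 h it was 1.67 ± 0.36 (0.07) in KO and 1.73 ± 0.36 (0.00807) in WT livers. It was not called for KD after 4 h, at −0.49 ± 0.35 (0.381) in KO and −0.34 ± 0.34 (0.481) in WT livers.

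Soat2 was lower after 24 h of fasting in WT CD livers (−0.85 ± 0.22, edgeR adjusted p = 0.00598), with 34.6, 18.8, 33.2 and 33.8 CPM against 51.2, 56.9, 58.4 and 50.2 at 4 h and no overlap. In KO CD livers it was 0.04 ± 0.21 (0.914), and the difference between the genotypes, 0.89 ± 0.30, did not pass (0.212; 95% interval 0.26 to 1.51). Abca1, which loads cholesterol onto apolipoprotein A-I, Npc1 and Npc2, which release it from lysosomes, and Lbr and Mylip passed in none of the 12 pairwise comparisons and 6 tests of differences with all libraries. This did not hold for 3 of them in other fits. Without the libraries with muscle transcripts Lbr passed for fasting in WT CD livers (−0.64, edgeR adjusted p = 0.038) and for the difference in diet effect in WT livers (0.90, 0.0353), as it did without WT CD 24 h replicate 1 alone (0.0449 and 0.0398). Npc1 passed for KD against CD in WT livers after 4 h in a fit to those groups alone (−0.52, 0.00638). Mylip passed for fasting in WT CD livers without WT CD 24 h replicate 3 (0.60, 0.0374) or replicate 4 (0.59, 0.0447). Abca1 stayed between −0.30 and 0.41 on the log2 scale over the pairwise comparisons, Npc2 between −0.43 and 0.30, and Npc1 between −0.56 and 0.24. Abca1 averaged 155 ± 10.8 CPM in KO KD 24 h, 191 ± 63.2 in KO KD 4 h, 182 ± 19.6 in KO CD 24 h and 189 ± 19.5 in KO CD 4 h livers. The WT means were 144 ± 31.6 in KD 24 h, 144 ± 27.8 in KD 4 h, 169 ± 27.1 in CD 24 h and 175 ± 12 CPM in CD 4 h (SD, n = 4 each). Npc1 overlaps 4908 bases of the antisense gene Gm15956.

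Most genes listed as feeding the pathway or as SREBP2 targets reported elsewhere were lower on KD after 4 h and on CD after 24 h. Few were called for KD after 24 h. Of 10 such genes, 6 were lower on KD after 4 h in KO and 6 in WT livers (4.66% and 16.5% of all genes lower). They were led by Rdh11, a retinol dehydrogenase (−2.53 ± 0.34 in KO, edgeR adjusted p = 7.47e-05; −2.74 ± 0.34 in WT, 1.53e-06), and Acly, which makes cytosolic acetyl-CoA from citrate (−2.52 ± 0.40, 0.000329; −2.72 ± 0.40, 1.46e-05). In WT livers Por, the electron donor of microsomal P450 enzymes such as Cyp51, was higher on KD (2.39 ± 0.34, 9.02e-06). After 24 h of fasting on CD 8 were lower and 1, Por, higher in each genotype. For this fast 9.75% of all genes were lower and 8.97% higher in KO livers, and 9.61% and 8.89% in WT livers. The acetoacetate-activating enzyme gene Aacs led with −3.42 ± 0.72 in KO (0.00189) and −3.80 ± 0.75 in WT livers (0.000563). Por was at 1.29 ± 0.33 in KO (0.00731) and 2.62 ± 0.34 in WT livers (2.99e-06). After 24 h KD raised only Mmab, a gene of vitamin B12 metabolism, in WT livers (1.29 ± 0.30, 0.0143) and none in KO livers. In that comparison 1.32% of all genes were higher in WT and 0.00693% in KO livers.

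The proteins that process and retain SREBP moved little. Of 8 genes of SREBP processing and sterol sensing 3 were lower after 24 h of fasting on CD in each genotype, Mbtps1, the site-1 protease (−0.55 ± 0.13 in KO, edgeR adjusted p = 0.00517; −0.47 ± 0.13 in WT, 0.0117), and the lipid raft proteins Erlin1 and Erlin2. After 4 h KD lowered 1 in KO livers, Paqr3 (−0.69 ± 0.16, 0.01), and 1 in WT livers, Erlin2 (−0.38 ± 0.12, 0.0175), and after 24 h none in either. After 4 h 4.66% of all genes were lower on KD in KO and 16.5% in WT livers. Of 11 genes of the other mevalonate branches, which make dolichol, ubiquinone and prenyl groups, 10 were tested. Fasting on CD lowered 3 and raised 1 in KO livers and lowered 2 in WT livers. For this fast 9.75% of all genes were lower and 8.97% higher in KO livers, and 9.61% and 8.89% in WT livers. KD after 4 h moved 0 in KO livers and in WT livers raised 2, led by Pdss1 of ubiquinone synthesis (0.97 ± 0.27, 0.00825), and lowered 3, beside 10.8% of all genes higher and 16.5% lower in that comparison.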

How the data were processed

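The submitters' processing notes name TopHat2 2.0.12, Bowtie2 2.2.3, HTSeq 0.6.1 and the build GRCm38 (mm10). Annotation release and strand setting: not given in the sources used here. The deposited table gives raw read counts per gene, FPKM values made by the authors (reads per length of gene and depth of library) and gene lengths. Libraries came from a TruSeq RNA kit, per the labels' protocols. Counts were tested with edgeR 4.0.16 (R 4.3.3; TMM, filterByExpr, quasi-likelihood F test, 8 group means, all 32 libraries, 24 residual degrees of freedom), two-sided, with Benjamini-Hochberg adjustment over 14438 genes in each comparison; genes passed at an adjusted p under 0.05. SE is |log2 fold change| over the root of F, and 95% intervals use the t distribution of the test. CPM use TMM library sizes; 3 counts equal 0.112 to 0.230 CPM, a floor that covers counting error only. FPKM serve only to compare levels between genes. On simulated counts for KD against CD, WT, 4 h (14244 genes), the test recovered 71 of 100 genes changed by 1 and 98 of 100 changed by 2 on the log2 scale, with 5.59% false calls. The changed genes were taken from those with higher mean counts, and each gene was drawn independently. These rates therefore do not carry over to members with low counts or to enzymes that move together.

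The 30 members, the other gene lists and the alternatives were chosen with earlier results of these data known. Named with statistics are called members, up to 6 per direction with the largest change, the control and transport genes whatever they did, and up to 3 per direction of other lists; members outside this rule are named after their values were seen. Alternatives were DESeq2 1.42.0, RLE size factors, no low-count filter, only the groups compared, each library left out, and leaving out libraries near the other diet or with muscle transcripts. Replicate numbers follow accession order and pair nothing. Replicate pairs had log-count correlations of 0.932 to 0.989 and differed in their counts by a chi-square of at least 7.73 for each degree of freedom, so none agreed within sampling noise. Gene overlaps are from the coordinates in the deposited table and upstream sequences from RefSeq (GRCm38.p6). On the opposite strand, Lss overlaps 11268 bases of 4930483K19Rik and Fdft1 767 bases of Ctsb. Tm7sf2 overlaps 532 bases of Vps51 on the same strand. Counts of Lss, Fdft1 and Tm7sf2 may be affected by reads from these overlaps. Acat2 and Idi1 have close paralogs, so their counts are less certain.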

Additional observations from a re-analysis of the deposited data

Results flagged for a closer look

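Single animals stood apart in 32 of 248 sets of 4 values (30 genes and the enzyme mean in 8 groups), by the gap to the nearest liver relative to the range of the group (Dixon's 95% criterion). For independent, normally distributed values the criterion flags about 1 in 20, here 12.4. The gene values were CPM without a log scale, and the sets are not independent, since enzymes move together. The excess over 12.4 was therefore not tested. WT KD 4 h replicate 2 was high in 11 sets: Hmgcs1 89.5 CPM (others 30.4 to 37.8), Pmvk 22.9, Mvd 8.92, Idi1 54.1, Fdps 123, Sqle 26.0, Cyp51 86.5, Tm7sf2 99.7, Msmo1 103 and Nsdhl 31.1 CPM, and the enzyme mean at 5.47 log2 CPM (others 4.08 to 4.18). WT KD 24 h replicate 4 was high in 9: Hmgcs1 391 CPM (others 148 to 158), Mvk 36.6, Mvd 37.0, Fdps 163, Fdft1 149.7, Sqle 81.6, Msmo1 262 and Hsd17b7 137 CPM, and the enzyme mean at 6.20 log2 CPM (others 5.33 to 5.45).

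Other livers stood apart in 1 to 3 sets each. WT CD 24 h replicate 1, which held muscle transcripts, had 14.7 CPM of Tm7sf2 (others 77.9 to 80.7), 11.3 CPM of Lbr and 113 CPM of Npc2 (others 53.9 to 60.2). WT CD 24 h replicate 2 had 18.8 CPM of Soat2, WT CD 4 h replicate 4 had 38.5 CPM of Msmo1 and WT KD 4 h replicate 1 had 13.3 CPM of Ggps1. KO KD 4 h replicate 2 had 0.504 CPM of Mvd, KO CD 4 h replicate 1 had 5.97 CPM of Ggps1, and KO CD 4 h replicate 4 had 57.3 CPM of Npc2 and 218 CPM of Abca1. The livers labelled KO KD 24 h replicate 4 and KO CD 24 h replicate 4, which lay near the other diet, had 1065 CPM of Insig2 (others 347 to 433) and an enzyme mean of 3.69 log2 CPM (others 4.08 to 4.13).

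The diet effect differed between 24 and 4 h of fasting, by a test of the difference, for 18 members in KO and 22 in WT livers. Over all genes the share was 1.39% in KO and 12.9% in WT livers. The largest log2 differences in KO livers were 6.05 for Sqle, 5.93 for Mvd, 5.62 for Fdps, 5.48 for Idi1, 4.88 for Cyp51 and 4.56 for Msmo1. In WT livers they were 4.96 for Mvd, 4.83 for Sqle, 4.53 for Fdps, 3.97 for Insig1, 3.96 for Idi1 and 3.78 for Hmgcs1.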

How the results depend on the processing

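No called member changed direction under any alternative, and DESeq2 kept all 141 calls of members over the 18 tests, RLE size factors 140, no low-count filter 139 and a fit to the compared groups alone 131. Calls kept were 43 of 47 without the libraries near the other diet, 106 of 117 without those with muscle transcripts and 1277 of 1448 over all fits that left out 1 library. For alternative fits, shares of all genes called are given above only for KD against CD in KO livers after 24 h. Changes in other comparisons are therefore not read as particular to the members. Counts of called members moved by over 1.5 times as follows. KD against CD in KO livers after 24 h (1 as reported) gave 10 by DESeq2, 3 with no filter, 8 without the libraries near the other diet, 0 without those with muscle transcripts, 0 in a fit to these groups alone and 0 to 10 with 1 library left out. KO against WT (0 as reported) gave, on CD after 24 h, 1 by DESeq2, 2 without the muscle libraries and 0 to 1 with 1 library left out; on KD after 4 h it gave 1 by DESeq2, 1 without the muscle libraries and 0 to 1 with 1 left out. The genotype difference in fasting on CD gave 1 without the muscle libraries. With 1 library left out, KD against CD gave 9 to 16 in KO and 9 to 19 in WT livers after 4 h and 7 to 16 in WT livers after 24 h, and 24 h against 4 h on KD gave 5 to 13 in KO and 4 to 19 in WT livers. Fits that leave out libraries also hold fewer samples, and the cause of these shifts was not tested. No paired analysis was possible because the labels give the groups no shared replicate numbers. With 4 animals a group and this spread, changes near 2-fold in Mvd, Sqle, Idi1, Fdps, Cyp51, Msmo1 and Nsdhl could be missed.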

Other observations

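Genes of fatty acid synthesis under SREBP1, the sister factor of SREBP2, were lower, like the cholesterol enzymes, on KD after 4 h and on CD after 24 h. Of 7 such genes 6 were lower on KD after 4 h in KO and 6 in WT livers (4.66% and 16.5% of all genes lower). They were led by Scd1, stearoyl-CoA desaturase (−6.10 ± 1.12 in KO, edgeR adjusted p = 0.0013; −8.35 ± 1.23 in WT, 1.52e-05), Pnpla3 (−5.66 ± 0.92, 0.000424; −5.42 ± 0.89, 5.67e-05) and Fasn, fatty acid synthase (−3.85 ± 0.57, 0.000179; −3.56 ± 0.56, 3.69e-05). After 24 h of fasting on CD 7 were lower in KO and 6 in WT livers (9.75% and 9.61% of all genes lower). After 24 h KD against CD moved 0 in KO livers, and in WT livers Srebf1 was higher (2.11 ± 0.35, 0.00127) and Scd1 lower (−7.38 ± 1.19, 0.000733). KO against WT, Srebf1 was higher on CD after 24 h (1.66 ± 0.35, 0.0102) and Scd1 on KD after 24 h (5.35 ± 1.08, 0.00374).

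Cholesterol efflux genes differed by genotype in 1 case. Of 8 genes of LXR and efflux, Abcg5, part of the transporter that sends sterols into bile, was higher in KO than in WT livers on CD after 24 h (0.88 ± 0.16, edgeR adjusted p = 0.00379) and 4 h (0.72 ± 0.16, 0.0125), and none passed on KD. Of 13 genes of intracellular cholesterol handling, KD after 4 h lowered 2 in KO livers, Lipa, the lysosomal lipase that frees cholesterol from its esters (−1.24 ± 0.21, 0.000785), and the sterol carrier gene Osbp (−0.68 ± 0.15, 0.00452). In WT livers it lowered 4, led by Lipa (−1.41 ± 0.21, 2.29e-05), and raised 2. In that comparison 16.5% of all genes were lower and 10.8% higher in WT livers, and 4.66% and 2.56% in KO livers. These counts are therefore not read as particular to the list.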
